A study of Mus musculus with 9 samples.

Results

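The insulin-like growth factor (IGF) axis was followed on 9 arrays through 10 genes: the ligand genes Igf1 and Igf2, the receptor genes Igf1r and Igf2r, and the binding protein genes Igfbp2, Igfbp3, Igfbp4, Igfbp5, Igfbp6 and Igfbp7. These genes were chosen by symbol, and all 28 probe sets that the platform annotation gives to 1 of them alone were taken, of 45037 probe sets that are not controls. A probe set is a group of short oligonucleotides that together report 1 transcript. A further probe set shared by Igf2r and Airn, a noncoding RNA gene that overlaps it, was not used. For tests by gene, a gene stood for by several probe sets was read from the one whose mean over the 9 arrays was highest, so that 10 members stood among 18193 genes. The RNA came from mouse embryos at embryonic day 16.5, taken from frozen tissue by laser capture microdissection, in which selected areas are cut out under a microscope. There were 3 arrays of the condyle (the jaw side of the temporomandibular joint), 3 of the fossa (its socket on the skull side) and 3 of the whole body as a reference. No allele or agent was named for any group, and the strain and the embryo behind each array are not given in the sources used here. The p-values therefore measure the spread between these samples.

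IGF1 and IGF2 are secreted growth factors that act mainly through the tyrosine kinase receptor encoded by Igf1r, while the receptor encoded by Igf2r takes up IGF2 and delivers it to lysosomes. The binding proteins hold the ligands outside the cell, and proteases release them again. In the skeleton the axis is known for driving growth of cartilage and bone, and Igf2 is an imprinted gene expressed strongly in fetal tissues.

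Igfbp2 and Igfbp4 were the members that differed among the 3 groups in a moderated F test (limma, adjusted p under 0.05), so the stretches just before their starts are shown. RefSeq promoter windows (build GRCm38.p6) matched all 10 members with 14 starts. Each stretch holds the 120 bases before the start, on the plus strand in both genes, from chr1:72824360-72824479 for the first Igfbp2 start and from chr11:99041124-99041243 for Igfbp4. Capitals mark matches, searched on both strands, to any of 3 short motifs. The GC box was searched as GGGCGG. The TATA box was searched as TATAAA. The core bound by Sox proteins was searched as AACAAT.
Igfbp2: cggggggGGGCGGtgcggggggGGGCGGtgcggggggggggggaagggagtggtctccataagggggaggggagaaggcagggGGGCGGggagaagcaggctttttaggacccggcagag
Igfbp4: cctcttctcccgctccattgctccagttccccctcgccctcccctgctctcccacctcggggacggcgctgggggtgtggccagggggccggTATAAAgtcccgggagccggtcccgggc
Igfbp2 held 3 copies of the GC box, the nearest beginning 37 bases before the start, and Igfbp4 held 1 TATA box beginning 28 bases before it. The matches did not overlap, and neither stretch held the Sox core. Over the 250 bases before each start, 32.7% of all 32851 RefSeq windows held the GC box, 12.4% the TATA box and 9.42% the Sox core. Among the members, 5 genes had a window with the GC box, 2 with the TATA box (Igfbp4 and Igfbp6) and 1 with the Sox core (Igf2). These counts are of genes with any matching start, while the shares above are of single windows. Counted by window, 6 of the 14 member starts held the GC box. These are matches of letters only. On the chromosome Igfbp2 is followed by Igfbp5, and Igfbp3 lies next to Igfbp1.

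A background limit was set on each array from 27 control probe sets for bacterial transcripts, as their top signal, and it lay between 2.87 and 3.52 (log2 intensity). Of the 28 probe sets, 15 were above the limit on all 9 arrays, 10 on some arrays and 3 on no array. Igfbp6 was at background throughout, at 2.37 to 2.67, so no fold is given for it. The other 9 members were above the limit on all 9 arrays with their representative probe set. The arrays differed in their upper range: the 75th percentile of all probe sets was 4.80 to 4.89 for condyle, 4.03 to 4.29 for fossa and 4.35 to 4.54 for whole body (log2). Fossa array 1 had the highest limit, 3.52, and the lowest share of probe sets above it, 30.3%. It also had the lowest 3' minus 5' difference of the control probe sets for Gapdh (3.69, against 4.97 to 6.86 on the other arrays) and for Actb (4.79, against 5.74 to 6.71). A control probe set for 18S ribosomal RNA read 14.27 to 14.42 in whole body and 5.90 to 9.75 in the joint tissues, and the 3' probe set of Gapdh read 12.42 to 12.44 in condyle, 10.36 to 11.23 in fossa and 9.77 to 10.68 in whole body (log2). The part of these in the members' values was not tested. The cartilage markers fitted the labels: 11 of 14 were higher in condyle and 11 of 14 in fossa when each was set against whole body, and none was at background in either joint tissue. A lower signal can mean fewer cells of a type or less RNA per cell, which cannot be told apart here.

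**Figure D1:**
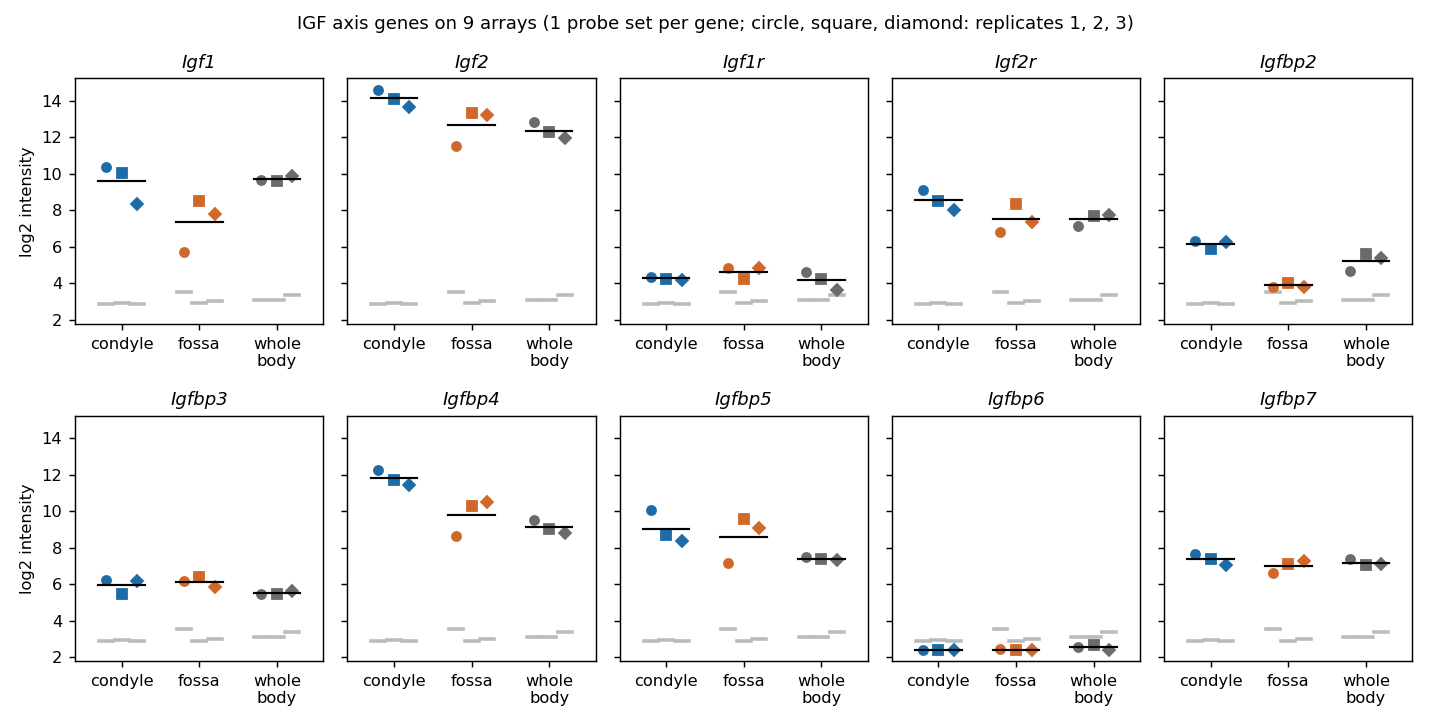
Log2 intensity (vertical axis) of the 10 IGF axis genes on each of the 9 arrays, by tissue, with black bars for the mean of 3 arrays and grey bars for the background limit of each array. Igfbp4 stands higher on the 3 condyle arrays than on the other 6 arrays, Igfbp2 is lowest on the 3 fossa arrays, and Igfbp6 lies under the limit on all 9 arrays.

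Across the axis, 2 of the 10 members passed the F test, against 28.1% of all genes. In condyle against whole body 1 member passed, Igfbp4, which was higher, against 13.2% of all genes (9.34% higher, 3.84% lower). In fossa against whole body 1 member passed, Igfbp2, which was lower, against 19.6% of all genes (3.99% higher, 15.6% lower). In condyle against fossa 2 members passed, Igfbp2 and Igfbp4, both higher in condyle, against 18.9% of all genes (16.8% higher, 2.13% lower). The split of all calls moved with the scaling: the share that were higher was 70.9%, 20.4% and 88.8% in these 3 comparisons as deposited, and 50.2%, 47.0% and 58.7% after quantile normalization. The members' counts lay near or under what the shares of all genes called would give for 10 genes, so they are no result about the axis as a whole. At an unadjusted p under 0.05 in limma, 4 members were higher and 0 lower in condyle than in whole body, against 17.6% and 10.5% of all genes. In fossa against whole body 1 was higher and 2 lower at that level, against 7.96% and 25.4%. In condyle against fossa 4 were higher and 0 lower, against 28.8% and 4.78%.

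The median log2 difference of the 10 members was 0.67 for condyle minus whole body, beside -0.03 for all genes. It was 0.17 for fossa minus whole body, beside -0.11, and 0.73 for condyle minus fossa, beside 0.21. Many of all genes were at background, while 9 of the 10 members were not. Without genes at background on all arrays, the median of the genes left was 0.14, -0.24 and 0.44 in the same order. The comparisons share arrays, so these medians are not independent of each other. Arrays of condyle and whole body did not overlap for 6 members (53.2% of all genes), 5 higher (19.8%) and 1 lower (33.4%), the lower one being Igfbp6 at background. Fossa and whole body did not overlap for 3 members (42.2%), 1 higher (11.1%) and 2 lower (31.1%). Condyle and fossa did not overlap for 3 members (49.7%), all 3 higher in condyle (33.9%).

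**Figure D2:**
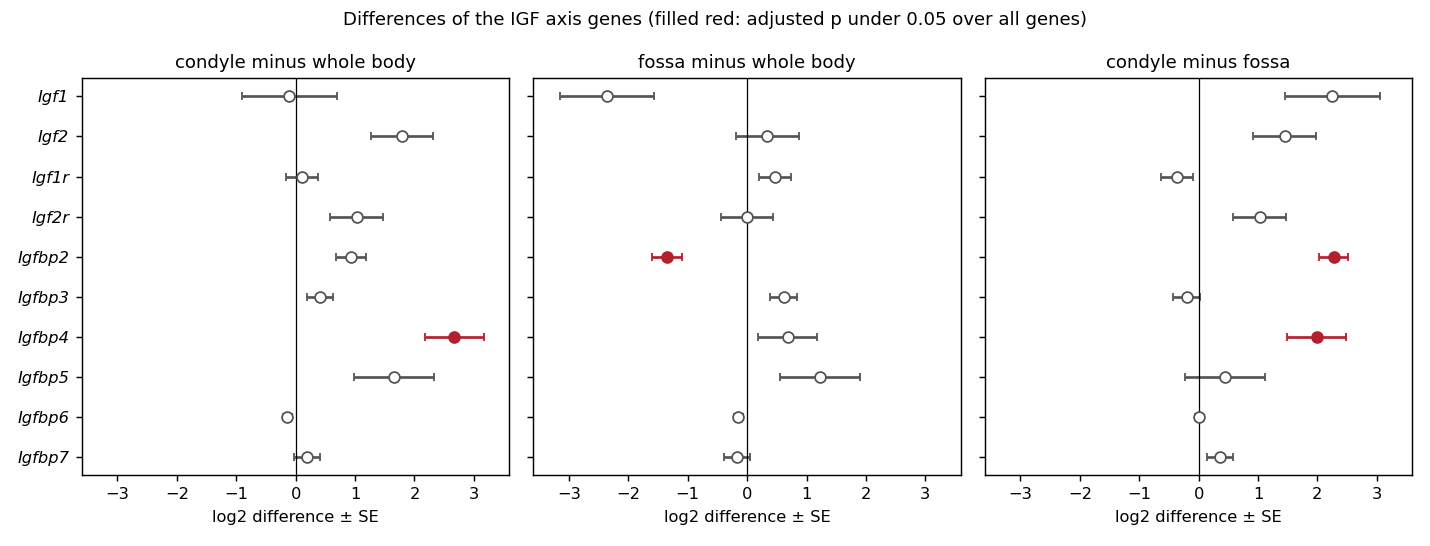
Log2 differences with their standard errors from the fit for the 10 IGF axis genes (rows) in the 3 comparisons (panels). Filled red points mark an adjusted p under 0.05: Igfbp4 at 2.67 for condyle minus whole body, Igfbp2 at -1.34 for fossa minus whole body, and Igfbp2 at 2.27 and Igfbp4 at 1.99 for condyle minus fossa.

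Among the ligands, Igf2 encodes the main fetal IGF. Its bright probe set read 14.61, 14.12 and 13.68 on the condyle arrays, 11.51, 13.33 and 13.23 on the fossa arrays, and 12.84, 12.27 and 11.94 on the whole body arrays (log2). Every condyle array lay above every array of the other groups, while fossa and whole body overlapped. The mean in condyle was 14.14 ± 0.47 (SD, n = 3), against 12.69 ± 1.02 in fossa and 12.35 ± 0.46 in whole body. The condyle minus whole body difference was 1.79 ± 0.53 (SE), which did not pass (limma adjusted p = 0.0693). It passed without fossa array 1 (adjusted p = 0.0155), with only the compared groups in the fit (0.0330) and without genes at background on all arrays (0.0394). In the other 15 alternatives it did not pass (adjusted p up to 0.188). Over all 18 the difference was 1.38 to 2.03. The difference from fossa was 1.45 ± 0.53 (adjusted p = 0.102), and fossa minus whole body was 0.34 ± 0.53 (adjusted p = 0.697). Without fossa array 1 these were 0.86 (adjusted p = 0.160) and 0.93 (0.125). The second Igf2 probe set was dim, with a condyle mean of 4.42 beside 3.27 for fossa and 3.46 for whole body. Its condyle minus fossa difference had the same sign but did not pass (at least 2.04-fold, adjusted p = 0.144).

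Igf1 encodes the ligand that in postnatal life follows growth hormone. It read 10.38, 10.07 and 8.35 in condyle, 5.70, 8.53 and 7.82 in fossa, and 9.66, 9.59 and 9.87 in whole body (log2). All 3 fossa arrays lay under all whole body arrays, and condyle and whole body overlapped. The fossa mean of 7.35 ± 1.47 (SD, n = 3) stood beside 9.60 ± 1.09 in condyle and 9.71 ± 0.14 in whole body. The difference of -2.36 ± 0.80 (SE) for fossa minus whole body did not pass (limma adjusted p = 0.0821). Neither did the 2.25 ± 0.80 for condyle minus fossa (adjusted p = 0.0941). Without fossa array 1 these values were -1.53 (adjusted p = 0.143) and 1.43 (adjusted p = 0.179). The probe set 1437401_at, the other bright one for Igf1, gave -3.21 ± 1.09 and 2.45 ± 1.09 in these comparisons (adjusted p = 0.0944 and 0.186), so both probe sets had the same sign. The dimmer 1419519_at and 1452014_a_at gave -0.90 ± 0.51 and -0.64 ± 0.31 for fossa minus whole body (adjusted p = 0.282 and 0.209). The condyle minus whole body difference of Igf1 was -0.11 ± 0.80 (adjusted p = 0.931).

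The receptor genes did not pass with their representative probe sets. Igf2r read 9.13, 8.49 and 8.0 in condyle, 6.82, 8.34 and 7.38 in fossa, and 7.12, 7.71 and 7.72 in whole body (log2). Condyle arrays lay above all whole body arrays but overlapped with fossa array 2. The differences were 1.03 ± 0.44 (SE) against whole body (limma adjusted p = 0.185) and 1.03 ± 0.44 against fossa (adjusted p = 0.154). The difference from fossa was 0.35 after quantile normalization (adjusted p = 0.707) and 0.68 without fossa array 1 (0.352). Its other probe set gave 1.25 ± 0.51 for condyle minus whole body and 0.14 ± 0.51 for condyle minus fossa (adjusted p = 0.197 and 0.883).

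Igf1r, the gene of the signalling receptor, was dim, and its 5 probe sets disagreed. The representative 1426565_at had means of 4.26 ± 0.08 (SD, n = 3) for condyle, 4.63 ± 0.34 for fossa and 4.16 ± 0.51 for whole body, with all 3 groups overlapping. Its condyle minus fossa difference was -0.36 ± 0.27 (SE, limma adjusted p = 0.410). By contrast 1452982_at read 4.45, 4.49 and 4.06 in condyle, 2.59, 2.80 and 3.07 in fossa, and 3.33, 3.30 and 3.27 in whole body. With this probe set condyle was at least 2.25-fold higher than fossa (adjusted p = 0.00165) and at least 2.01-fold higher than whole body (adjusted p = 0.0120), adjusted over all 45037 probe sets. These folds are lower bounds because the probe set was above the limit on 1 of 3 fossa and 2 of 3 whole body arrays. The bound sets the brighter group's mean log2 value against the higher of the limit and the signal on each dimmer array. Another probe set, 1428967_at, had a condyle mean of 3.76 ± 0.61, against 2.76 ± 0.40 in fossa and 2.76 ± 0.04 in whole body, and did not pass (adjusted p = 0.0807 and 0.129). Over all 28 probe sets of the axis, 5 passed for condyle against whole body (6.19% of all probe sets), 2 for fossa against whole body (16.8%) and 6 for condyle against fossa (16.0%). Both remaining probe sets of Igf1r reached the limit on 1 fossa array and on no other array.

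**Figure D3:**
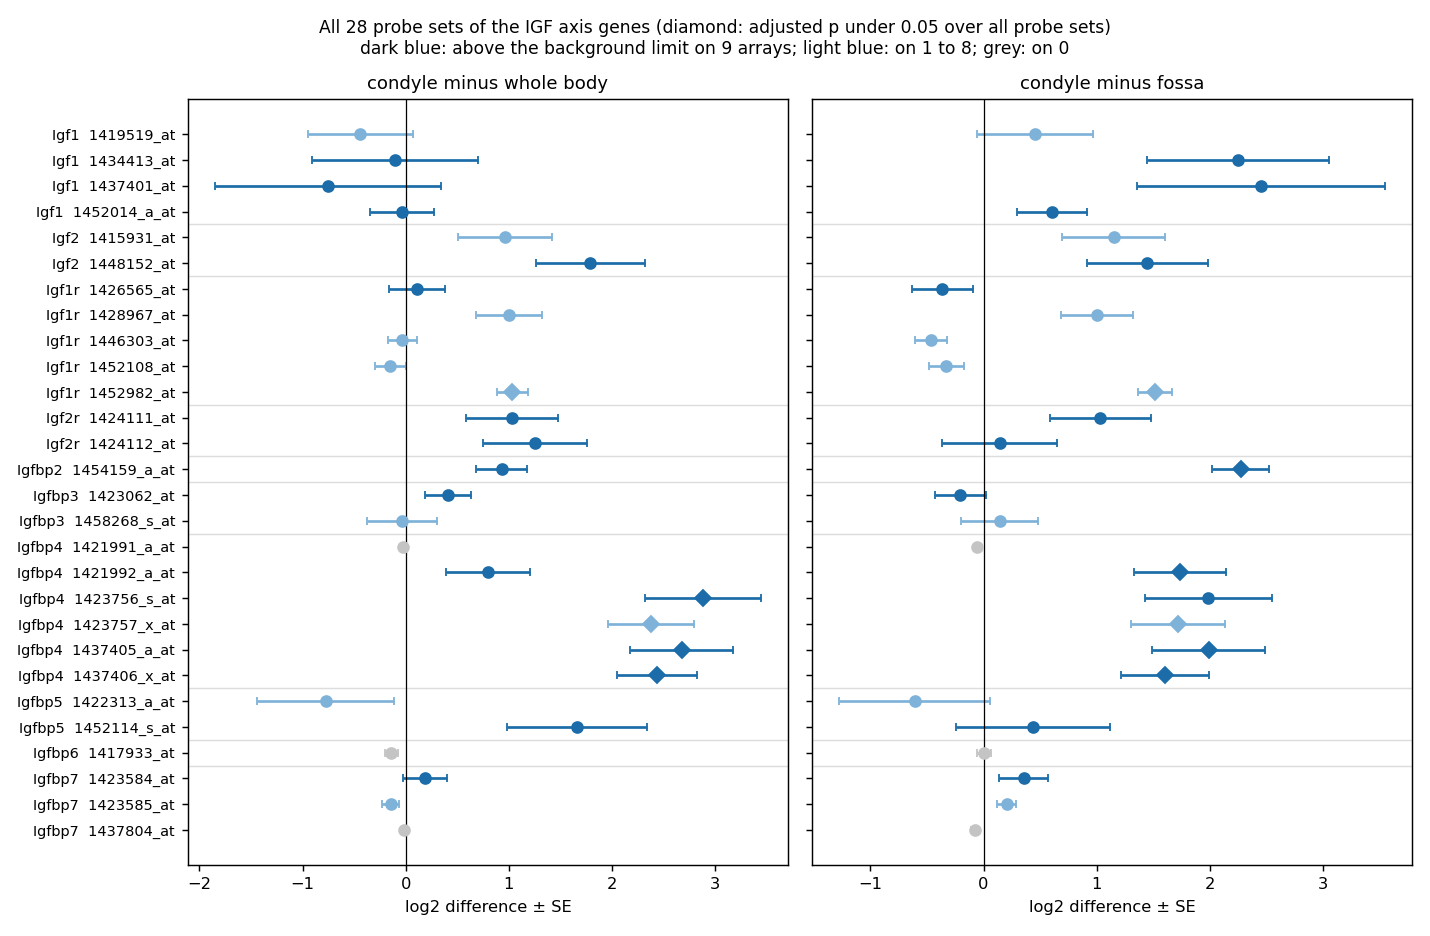
Log2 differences with standard errors for all 28 probe sets (rows), condyle minus whole body on the left and condyle minus fossa on the right, coloured by the number of arrays above the background limit. Diamonds mark an adjusted p under 0.05 over all 45037 probe sets: 5 on the left and 6 on the right, in each case 4 of the 6 Igfbp4 probe sets and 1452982_at of Igf1r, with Igfbp2 added on the right.

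Igfbp4 encodes a binding protein that mostly restrains IGF action and is cut by the pappalysin protease encoded by Pappa. The condyle arrays read 12.26, 11.69 and 11.44, the fossa arrays 8.66, 10.28 and 10.49, and the whole body arrays 9.52, 9.04 and 8.81 (log2). Every condyle array lay above the other 6, and fossa and whole body overlapped through fossa array 1. The condyle mean was 11.80 ± 0.42 (SD, n = 3), 6.38-fold above the whole body mean of 9.12 ± 0.36 and 3.97-fold above the fossa mean of 9.81 ± 1.00. The log2 differences were 2.67 ± 0.50 (SE, limma adjusted p = 0.0157) and 1.99 ± 0.50 (adjusted p = 0.0334). Fossa minus whole body was 0.69 ± 0.50 (adjusted p = 0.382), but without fossa array 1 it was 1.26 ± 0.30 and passed (adjusted p = 0.0379). The Igfbp4 probe sets disagreed in sign here. The set 1421992_a_at, above the limit on all 9 arrays, gave -0.94 ± 0.41 (limma adjusted p = 0.166 over all probe sets). By contrast 1423756_s_at, 1423757_x_at and 1437406_x_at gave 0.90, 0.66 and 0.83, and none of them passed.

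The Igfbp4 call for condyle against fossa was lost in several alternatives. It was lost after quantile normalization, where the difference was 1.33 (adjusted p = 0.183), with only both groups in the fit (0.0734) and with a common floor (0.0666). It was also lost without condyle array 1 (0.102), condyle array 2 (0.0773), condyle array 3 (0.0629) or whole body array 2 (0.0543). The call against whole body was lost without condyle array 1 (adjusted p = 0.0533) or whole body array 2 (0.0523), and held after quantile normalization (2.6, adjusted p = 0.0243). Over the 18 alternatives the difference stayed between 1.33 and 2.33 against fossa and between 1.86 and 2.87 against whole body. Tested as single probe sets, 4 of the 6 of Igfbp4 passed in each comparison with log2 differences of 2.38 to 2.88 against whole body and 1.60 to 1.99 against fossa. The probe sets may share target sequence and are not replicates. The sets 1421992_a_at (adjusted p = 0.262 against whole body) and 1423756_s_at (adjusted p = 0.0563 against fossa) did not pass, and 1421991_a_at was at background on all arrays.

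Igfbp2 encodes a binding protein that is abundant in fetal tissues. It had 1 probe set, which read 6.31, 5.85 and 6.28 in condyle, 3.80, 4.04 and 3.80 in fossa, and 4.66, 5.59 and 5.40 in whole body (log2). No pair of groups overlapped, with condyle highest and fossa lowest. The fossa values lay above the limits of those arrays, 3.52, 2.89 and 3.00, by little on array 1. The condyle mean of 6.15 ± 0.25 (SD, n = 3) was 4.83-fold above the fossa mean of 3.88 ± 0.14, a difference of 2.27 ± 0.25 (SE, limma adjusted p = 0.00231). The fossa mean was 2.54-fold under the whole body mean of 5.22 ± 0.49, a difference of -1.34 ± 0.25 (adjusted p = 0.0112). Condyle and whole body, neighbours in this order, stood 0.93 ± 0.25 apart without passing (adjusted p = 0.0542). This difference passed when arrays were centred on the median (0.0474) and without genes at background on all arrays (0.0411). In the other 16 alternatives it did not pass. Over all 18 it ran from 0.45 to 1.12, with adjusted p up to 0.241.

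Both Igfbp2 calls held in all 18 alternatives, with adjusted p up to 0.0137 for condyle against fossa and up to 0.0415 for fossa against whole body. The condyle minus fossa difference fell to 1.57 (adjusted p = 0.00781) after quantile normalization. The 75th percentile of the arrays had the order of Igfbp2, highest in condyle and lowest in fossa. The mean log2 of the epithelial markers was 6.73 to 7.59 in condyle, 6.99, 4.06 and 6.89 on fossa arrays 1 to 3, and 5.98 to 6.01 in whole body. All condyle arrays lay above whole body, and of the fossa arrays only array 2 lay under it. The summed intensity of 9 epithelial markers was 2072 to 5254 on condyle arrays, 194 to 3235 on fossa arrays and 959 to 1138 on whole body arrays. Of these markers 1 was higher in condyle than in fossa and 2 were lower in fossa than in whole body, and Cldn6 was at background in both joint tissues. The part of the upper range and of the epithelial markers in the Igfbp2 result was not tested.

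**Figure D4:**
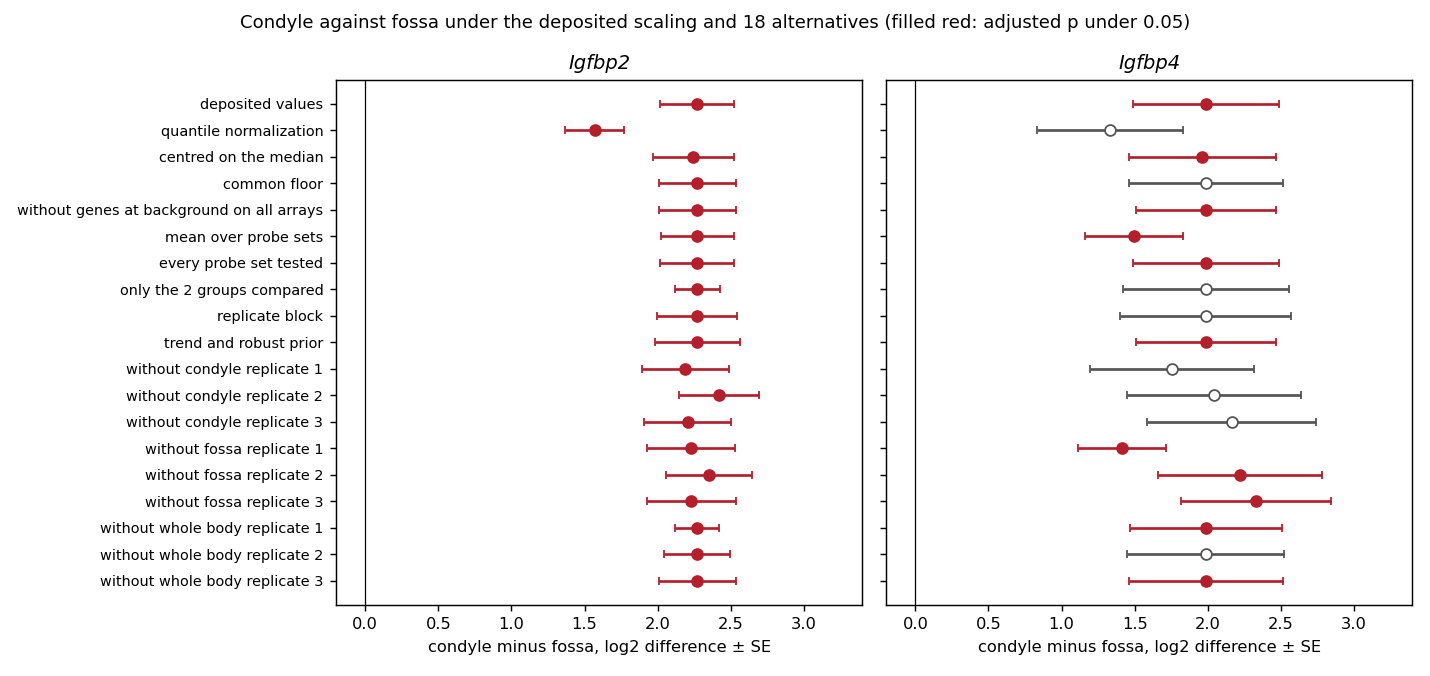
Condyle minus fossa log2 differences with standard errors for Igfbp2 (left) and Igfbp4 (right), for the deposited values and for 18 alternative settings (rows). All Igfbp2 points are filled, marking an adjusted p under 0.05, while 8 Igfbp4 alternatives are open; every point lies above 0.

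Igfbp5 encodes the binding protein most tied to bone and connective tissue. It read 10.05, 8.72 and 8.35 in condyle, 7.16, 9.55 and 9.09 in fossa, and 7.46, 7.37 and 7.30 in whole body (log2). All condyle arrays and fossa arrays 2 and 3 lay above the whole body arrays, and fossa array 1 lay under them. The differences from whole body were 1.66 ± 0.68 (SE) in condyle (limma adjusted p = 0.163) and 1.22 ± 0.68 in fossa (adjusted p = 0.255). Without fossa array 1 the fossa difference was 1.94 ± 0.49 and passed (adjusted p = 0.0448), and the condyle difference had an adjusted p = 0.0571. Condyle minus fossa was 0.44 ± 0.68 (adjusted p = 0.706), with the sign turned, to -0.23, after quantile normalization. So the neighbouring genes Igfbp2 and Igfbp5 differed in their order: fossa was lowest for Igfbp2, while for Igfbp5 the lowest mean was that of whole body. This difference between the genes was not tested. The mean log2 of 8 bone markers was 9.21, 6.84 and 7.16 in condyle, 7.80, 9.51 and 8.99 in fossa, and 6.11 to 6.25 in whole body. In both joint tissues it was highest on the array where Igfbp5 was highest. The fibrous tissue, leukocyte and endothelium lists were highest on the same arrays, so this is not particular to bone. Condyle arrays 2 and 3 stood in opposite orders for the bone markers and Igfbp5. Of the bone markers 1 was higher in condyle and 4 in fossa against whole body, and none was at background. The part of these lists in the Igfbp5 values was not tested. The other Igfbp5 probe set, 1422313_a_at, was above the limit on 1 fossa array and 1 whole body array.

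Igfbp3, Igfbp6 and Igfbp7 passed in no comparison. Igfbp3, which encodes the main carrier of IGFs in serum, read 6.20, 5.44 and 6.16 in condyle, 6.15, 6.39 and 5.87 in fossa, and 5.48, 5.47 and 5.62 in whole body (log2). All 3 fossa arrays lay above the whole body arrays, by 0.62 ± 0.23 (SE, limma adjusted p = 0.103). This difference passed after quantile normalization (0.87, adjusted p = 0.0411) and without condyle array 2 (adjusted p = 0.0309). It did not pass in the other 16 alternatives (adjusted p up to 0.572). Igfbp7, which encodes a more distant relative with low affinity for IGFs, had means of 7.35 ± 0.32 (SD, n = 3) for condyle, 7.0 ± 0.32 for fossa and 7.17 ± 0.18 for whole body. Its condyle minus fossa difference was 0.36 ± 0.22 (adjusted p = 0.307), and -0.36 after quantile normalization. The other Igfbp3 probe set, 1458268_s_at, was above the limit on 2 condyle arrays and 1 fossa array, and 1437804_at of Igfbp7 on no array. A dim Igfbp7 probe set, 1423585_at, was lower in fossa than in whole body by 0.35 on the log2 scale (adjusted p = 0.0298), but was above the limit on no fossa array and on 2 whole body arrays, so that the fold was at least 1.03.

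Within the condyle group the members ordered the arrays much alike with their representative probe sets. Among the 9 members above the limit on all arrays, condyle array 1 was the highest of the condyle arrays for 9, and condyle array 3 the lowest for 7. The lead of array 1 was small for Igfbp2 (6.31 against 6.28) and Igfbp3 (6.20 against 6.16). Condyle array 2 was highest for some other probe sets of these genes, among them 1437401_at of Igf1 and 1424112_at of Igf2r. Over the 7751 genes above the limit on all arrays, condyle array 1 was highest for 32.0% and condyle array 3 lowest for 34.7%. Fossa array 1 was the lowest of the fossa arrays for 6 of the 9 members, against 44.1% of those genes. Some marker lists were also highest on condyle array 1 among the condyle arrays, namely fibrous tissue, bone, leukocyte and endothelium. The cartilage, skeletal muscle, erythroid, and neuron and glia lists were highest on another condyle array. The epithelium and liver lists were lowest on condyle array 1, so the lists did not share 1 order. On condyle arrays 1 to 3 the mean log2 of 8 fibrous tissue markers was 9.30, 8.47 and 7.84, that of 8 bone markers 9.21, 6.84 and 7.16, and that of 7 leukocyte markers 5.64, 3.89 and 3.90. The part of the marker lists in the members' order was not tested. Without fossa array 1, Igf2, Igfbp2, Igfbp4 and Igfbp5 passed the F test, 4 of 10 members against 24.3% of all genes. The comparison of fossa with whole body then had 3 members past the threshold, Igfbp2, Igfbp4 and Igfbp5, against 16.9% of all genes.

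Other genes of the pathway were taken from lists of 57 genes, of which 47 were measured and the others are not analysed here. Among 16 extracellular genes and regulators, 3 were higher and 1 lower in condyle than in whole body (9.34% and 3.84% of all genes; median log2 difference 0.23, beside -0.03). In fossa against whole body 1 was higher and 2 lower (3.99% and 15.6% of all genes; median -0.12, beside -0.11). In condyle against fossa 5 were higher and 0 lower (16.8% and 2.13% of all genes; median 0.35, beside 0.21). At an unadjusted p under 0.05 in limma these were 6 and 0 (28.8% and 4.78%). The 5 genes past the adjusted threshold were Htra1, Ins2, Igf2bp1, Igf2bp3 and Grb10. After quantile normalization Htra1, Igf2bp1 and Grb10 no longer passed (adjusted p = 0.321, 0.351 and 0.360). Without genes at background on all arrays, the median over genes was 0.14, -0.24 and 0.44 in the 3 comparisons, in the order given.

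Igfbp1, the binding protein gene of the fetal liver, set the joint apart from the body. It read 6.83, 8.76 and 8.05 in whole body (log2) and was at background on all condyle and fossa arrays. It was at least 31.6-fold lower in condyle (limma adjusted p = 0.000561) and at least 26.7-fold lower in fossa (adjusted p = 0.000364). The summed intensity of 8 liver markers was also highest in whole body, at 70665 to 80983, against 974 to 38611 in condyle and 61.5 to 34287 in fossa. A summed intensity is led by its brightest markers, so its wide range among the joint arrays need not follow the whole list. Igfbp1 read 2.27 to 2.32 on those arrays. The mean log2 of the markers was 11.21 to 11.66 in whole body, 3.94 to 4.45 in condyle and 2.80 to 4.48 in fossa. Of the markers 4 were at background in condyle and 3 in fossa, with Apoa1 and Fgb in both. The part of liver tissue in the Igfbp1 difference was not tested.

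Pappa2, which encodes a pappalysin protease that cuts binding proteins, was higher in both joint tissues. Its condyle arrays read 5.05, 6.51 and 5.40, its fossa arrays 5.51, 5.02 and 5.31, and its whole body arrays 3.64, 3.43 and 3.94 (log2). The differences from whole body were 1.98 ± 0.37 (SE, limma adjusted p = 0.0156) in condyle and 1.61 ± 0.37 (adjusted p = 0.0230) in fossa, with no overlap. Quantile normalization ended the condyle call (adjusted p = 0.0504). A common floor ended the fossa call (0.0509). Both calls were lost without whole body array 2 (0.0547 and 0.0734). The fossa call was also lost without fossa array 1 (0.0652), fossa array 3 (0.0693) or whole body array 1 (0.0615). Condyle and fossa overlapped (0.37 ± 0.37, adjusted p = 0.543). The representative probe set of Pappa, by contrast, was above the limit on 1 whole body array and on no condyle or fossa array.

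Htra1, a secreted serine protease gene, was higher in condyle by 1.73 ± 0.35 (SE) against whole body (limma adjusted p = 0.0212) and by 1.32 ± 0.35 against fossa (adjusted p = 0.0405). The call against fossa was lost in 12 of 18 alternatives, among them leaving out any whole body array, any fossa array, or condyle array 1 or 2 (adjusted p = 0.0566 to 0.116). The others were quantile normalization (0.70, 0.321), a common floor (0.0775), the mean over probe sets (0.0556) and only the compared groups in the fit (0.0834). The call against whole body was lost without condyle array 1 or 2 or whole body array 2 or 3 (0.0518 to 0.0695). Igf2bp1, the gene of an RNA-binding protein that binds Igf2 mRNA, was 1.45 ± 0.39 higher in condyle than in fossa (adjusted p = 0.0422). It passed without fossa array 2 and whole body arrays 2 and 3, and did not pass without any other single array (adjusted p = 0.0610 to 0.119) or with a common floor (0.0812). With the mean over its probe sets it passed at 0.79 (0.00204). Grb10, an adaptor gene that restrains signalling from this receptor family, was 1.03 ± 0.23 higher in condyle than in fossa (adjusted p = 0.0242). It did not pass without condyle array 1 or 3 or fossa array 1 or 3 (0.0501 to 0.0723), and with the mean over its probe sets the difference was 0.30 (0.197).

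**Figure D5:**
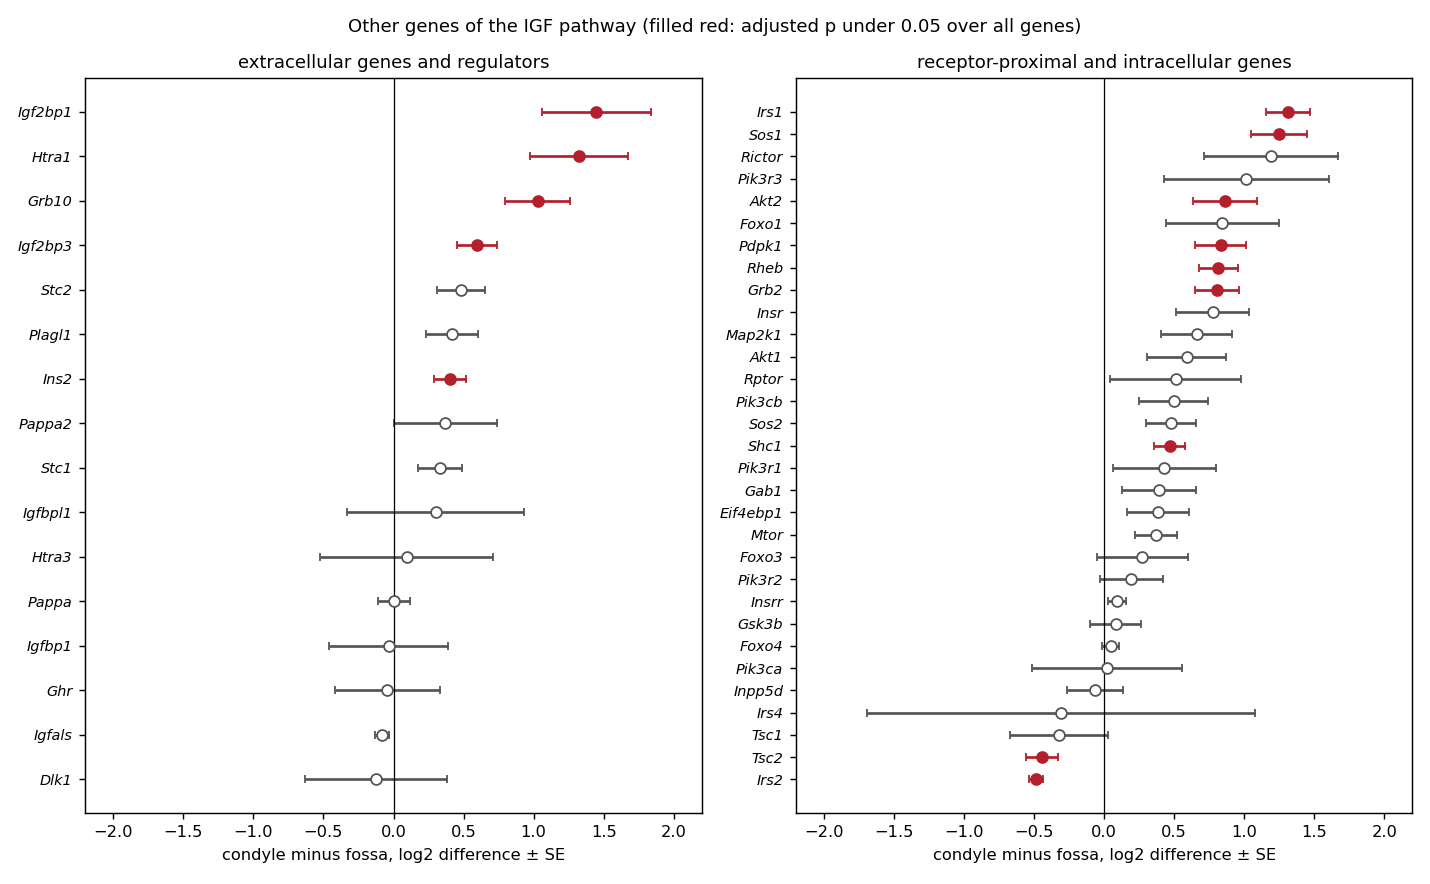
Condyle minus fossa log2 differences with standard errors for 16 extracellular genes and regulators of the IGF pathway (left) and 31 receptor-proximal and intracellular genes (right), each sorted by its difference. Filled red points mark an adjusted p under 0.05: 5 higher on the left, 7 higher and 2 lower on the right, with Igf2bp1 at 1.45 and Irs1 at 1.31 the highest of each list.

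Among 31 receptor-proximal and intracellular genes, 6 were higher and 0 lower in condyle than in whole body (9.34% and 3.84% of all genes; median log2 difference 0.30, beside -0.03). At an unadjusted p under 0.05 in limma these were 11 and 2 (17.6% and 10.5%). In fossa against whole body 5 were higher and 7 lower (3.99% and 15.6% of all genes; median 0.10, beside -0.11), of which Irs2 and Insrr were at background in both groups. In condyle against fossa 7 were higher and 2 lower (16.8% and 2.13% of all genes, median 0.47, beside 0.21). Of the lower ones, Irs2 was at background in both groups. Without genes at background on all arrays, the median over genes was 0.14, -0.24 and 0.44 in the 3 comparisons, in the order given.

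Irs1, which encodes the main docking protein of the activated receptors, followed the order condyle, fossa, whole body without overlap. It read 10.03, 9.83 and 9.93 in condyle, 8.44, 8.75 and 8.67 in fossa, and 7.77, 7.70 and 8.22 in whole body (log2). The condyle mean of 9.93 ± 0.10 (SD, n = 3) was 4.10-fold above whole body, a log2 difference of 2.04 ± 0.15 (SE, limma adjusted p = 0.000561). It was 2.48-fold above fossa (1.31 ± 0.15, adjusted p = 0.00286). Both calls held in all 18 alternatives, and after quantile normalization the difference from fossa was 0.67 (adjusted p = 0.0206). Fossa was above whole body by 0.72 ± 0.15 (adjusted p = 0.0182), a call lost without fossa array 2 or 3 or whole body array 1 or 2 (adjusted p = 0.0535 to 0.0610) and with only the compared groups in the fit (0.0536). After quantile normalization it was 1.21 (0.00132).

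Downstream of the receptors, Akt1, the gene of a central kinase of the pathway, read 4.99, 4.73 and 5.30 in condyle and 3.89, 4.61 and 4.76 in fossa, and was above the limit on 1 whole body array. It was at least 3.29-fold higher in condyle (limma adjusted p = 0.00624) and at least 2.19-fold higher in fossa (adjusted p = 0.0150; 0.0514 without fossa array 3 and 0.0803 with a common floor). With the mean over all Akt1 probe sets neither passed (adjusted p = 0.107 and 0.182). Pik3r1, the gene of a regulatory subunit of phosphoinositide 3-kinase, was higher in condyle than in whole body by 1.65 ± 0.36 (SE, adjusted p = 0.0282). It did not pass without condyle array 1 or 2 or whole body array 1 or 3 (0.0694 to 0.0834). It also did not pass after quantile normalization (1.27, adjusted p = 0.104), with the mean over all Pik3r1 probe sets (0.54, 0.0925) or with only the compared groups in the fit (0.0631).

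Foxo1, a transcription factor gene whose product the pathway inhibits, was higher in condyle than in whole body by 1.70 ± 0.40 (SE, limma adjusted p = 0.0342). It did not pass without condyle array 1 or 2, fossa array 3 or any whole body array (0.0564 to 0.101). It also did not pass after quantile normalization (1.41, adjusted p = 0.0619), with a common floor (0.0564) or with every probe set tested (0.0570), and with the mean over its probe sets it passed at 0.92 (0.0344). Sos1, the gene of a Ras activator, was lower in fossa on every array. Its difference was 1.25 ± 0.20 for condyle minus fossa (adjusted p = 0.00793) and -0.98 ± 0.20 for fossa minus whole body (adjusted p = 0.0151). After quantile normalization these were 0.55 (adjusted p = 0.235) and -0.65 (adjusted p = 0.106), and with the mean over all Sos1 probe sets neither passed (0.186 and 0.0552).

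The genes whose log2 values followed each F-tested member most closely over the 9 arrays were sought among 11501 other genes above the limit on at least 3 arrays. For Igfbp2 they were Prr12, Nup155 and Zyx, with Pearson r of 0.981, 0.978 and 0.977. For Igfbp4 they were Gorasp2, Rere and Dpagt1, with r of 0.984, 0.982 and 0.980. These values describe the arrays, which share scaling and groups, and carry no test.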

How the data were processed

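Affymetrix mouse arrays were hybridised with biotin-labelled cRNA, per the labels' protocols. The authors deposited 1 intensity per probe set and array, which its range of 3.25 to 67158.9 shows to be linear. The submitters' processing notes name limma without a version; background correction, normalization and probe summary are not given in the sources used here. The deposited scaling was kept.

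The log2 of each intensity was taken after a floor of 1 (0 values lay under it). Of 45101 probe sets, 64 were controls, 34945 had 1 gene symbol, 932 several and 9160 none in the annotation used; 0 symbols changed through RefSeq. One fit of 3 groups used limma 3.58.1 (lmFit, eBayes) in R 4.3.3, with 6 residual and 1.12 prior degrees of freedom, after a test on simulated data. Benjamini-Hochberg adjustment ran over all 18193 genes, or over 45037 probe sets for single probe sets. The number of arrays limits the precision.

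Members, lists and tests were chosen with earlier results of these data known. Named were all members, from each pathway list up to 5 genes past the threshold with the largest absolute difference, and the 3 genes most alike to each member past the F test; other names were chosen after their values were seen. The alternatives comprised 18 settings, 9 of them leaving out 1 array.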

Additional observations from a re-analysis of the deposited data

How the results depend on the processing

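Over the 18 alternatives, the 10 members gave 537 values in the 3 comparisons. Of these, 517 kept their side of the threshold, 11 lost a call, 9 gained one and 0 turned the direction of a called value. The count of members past the threshold in condyle against fossa was 2 as deposited. It was 1 in each of 4 settings, namely quantile normalization, a common floor, only the 2 groups compared and the replicate block, and 1 to 2 leaving out 1 array. In condyle against whole body it was 1 as deposited. It was 2 centred on the median, 3 without genes at background on all arrays, 2 with only the 2 groups compared, and 0 to 2 leaving out 1 array. With the replicate block it was 0 in limma (3 at an unadjusted p under 0.05), and it was also 0 without condyle array 1 or without whole body array 2 (3 in each at an unadjusted p under 0.05). In fossa against whole body it was 1 as deposited, 2 after quantile normalization and 1 to 3 leaving out 1 array. The F test had 2 as deposited, 1 with the replicate block and 1 to 4 leaving out 1 array. The causes of these changes were not tested.

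Over all genes, condyle against fossa had 3440 calls as deposited, 1174 with quantile-normalized values, 1823 with a common floor and 2086 to 3515 leaving out 1 array. Condyle against whole body had 2398, and 1470 to 2591 leaving out 1 array. Fossa against whole body had 3559, 1893 with a common floor and 2343 to 3352 leaving out 1 array. The F test had 5119, 3150 with quantile-normalized values, 3024 with a common floor and 3594 to 4673 leaving out 1 array. The share of calls that were higher moved under quantile normalization from 70.9% to 50.2% in condyle against whole body, from 20.4% to 47.0% in fossa against whole body (44.7% centred on the median) and from 88.8% to 58.7% in condyle against fossa. The median of all genes moved from 0.21 to -0.01 (log2) in condyle minus fossa and from -0.11 to 0.00 in fossa minus whole body under quantile normalization, and from -0.03 to 0.09 in condyle minus whole body when arrays were centred on the median.

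The labels number the arrays 1 to 3 in each group. Same-numbered arrays of different groups correlated between -0.46 and 0.16 in their deviations from the group means over 7751 genes, and 2 of 9 such pairs were over 0.1, so the numbers were not taken as pairs. The block result is therefore given as counts, and a call lost under it is not read as a weaker effect. Arrays with different numbers correlated between -0.17 and 0.49. The highest were condyle array 1 with fossa array 2 (0.49) and condyle array 2 with fossa array 1 (0.47). The source of these correlations was not tested, and the fit used no pairs. Only 15 of the 28 probe sets were above the background limit on all 9 arrays, which limits what the others can show.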

Other observations

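Ins2, which lies next to Igf2 on the chromosome, was above the background limit on 1 condyle array and on no other array, although its condyle minus fossa difference of 0.40 (log2) passed (limma adjusted p = 0.0479). Ghr, the gene of the growth hormone receptor, had condyle arrays that all lay under the whole body arrays, and its difference did not pass (-0.82 ± 0.38, SE, adjusted p = 0.206). Mtor, the gene of a growth-control kinase, was higher than in whole body in both joint tissues, by 1.22 ± 0.15 in condyle (adjusted p = 0.00377) and 0.85 ± 0.15 in fossa (adjusted p = 0.00923). Rheb, the gene of the small GTPase that activates it, fell by 0.81 in fossa against whole body (SE 0.14, adjusted p = 0.00867) and did not pass in condyle (0.01 ± 0.14, adjusted p = 0.968). These 4 genes belong to the pathway lists and were singled out after their values were seen.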
